A study of Rattus norvegicus with 17 samples.

Results

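The remnant left kidney of rats with 5/6 nephrectomy (5/6Nx) was compared with the left kidney of sham-operated rats, gene by gene and transcript by transcript. The genes described are those with exactly 1 gene symbol and a sham value of at least 1 FPKM in the authors' deposited gene table, where FPKM is fragments per kilobase of transcript per M mapped fragments (SI prefix mega). This left 10106 of 126306 listed features, and the same rule on the isoform table left 8450 of 160133 transcripts. Features at 0 or near 0 in sham, features with no symbol and rows with several symbols therefore lie outside the comparison. All animals were male Sprague Dawley rats that arrived at 9 weeks of age, received a 0.4% Dyets chow and were operated on at 10 weeks, with the left kidney collected 6 weeks later. In the 5/6Nx group (n = 6) the surgeons took out the whole right kidney together with most of its partner, so the remnant was the only kidney tissue left. The sham group (n = 5) kept both kidneys. A 1/3Nx group (n = 6) had the identical cut on the left side with an intact right kidney, and its values are given beside those of 5/6Nx for orientation. The labels list no transgene, drug or other agent.

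Removal of most kidney mass leaves the remaining nephrons to carry the filtration load, and the remnant is used as a model of progressive chronic kidney disease with glomerular scarring, tubular atrophy and interstitial fibrosis. Proximal tubule cells reclaim most of the filtered solutes and depend on mitochondrial oxidation, the thick ascending limb reabsorbs salt and secretes uromodulin, and collecting duct cells adjust water, salt and acid. Injured tubule cells are known to lose such transport genes and to express injury proteins such as Lcn2 and Spp1, while fibroblasts and leukocytes accumulate between the tubules.

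The expression tables hold 1 value per group and no value per animal, so no SD can be set beside a gene's level and the tests quoted are those of the authors' deposited tables, with q under 0.05 as the threshold. The effect is log2((5/6Nx + 0.1)/(sham + 0.1)) of the group FPKM, a scale that understates the change of low genes. Libraries held 59.0 to 103.6 M reads in 5/6Nx and 66.1 to 78.5 M in sham. Reads mapped at 90.5%, 90.4%, 62.6%, 88.3%, 77.2% and 87.0% in the 6 libraries of 5/6Nx and at 84.8% to 89.6% in sham. Replicates 3 and 5 of 5/6Nx thus lay below every sham library, replicates 4 and 6 lay within the sham range, and replicates 1 and 2 lay above every sham library. Mapping averaged 82.7% ± 10.99 (SD, n = 6) after 5/6Nx, against a sham mean of 87.7% ± 1.94 (SD, n = 5), and the difference did not pass a two-sided exact permutation test (p = 0.463, adjusted p = 0.618 over 4 library measures, smallest p possible 0.00433). Because the gene values are group values, no gene result can be given with and without these libraries, and their part in the results was not tested.

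**Figure D1:**
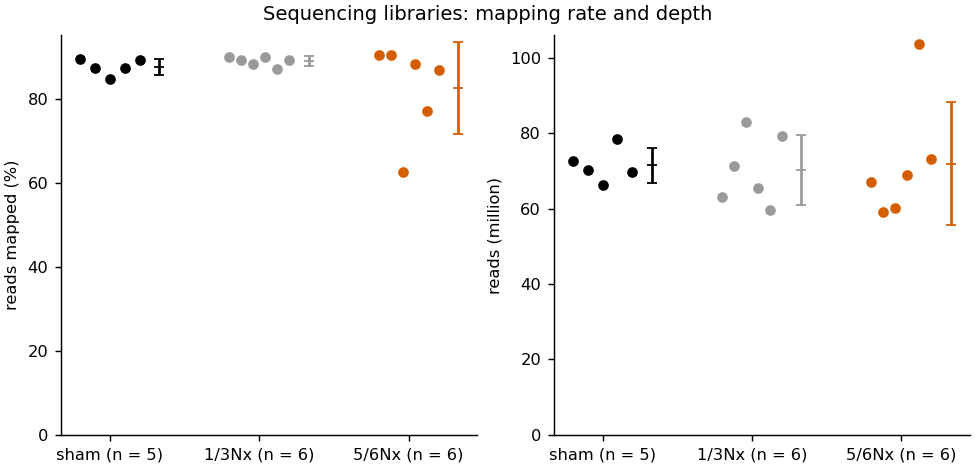
Percent of reads mapped (left) and number of reads in M (right) for each library of the sham, 1/3Nx and 5/6Nx groups. Points are libraries, and the bar beside each group is the mean ± SD. Replicates 3 (62.6%) and 5 (77.2%) of 5/6Nx mapped at lower rates than every other library, and replicate 5 was the deepest at 103.6 M reads.

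Most genes had a slightly lower value in 5/6Nx than in sham, and the genes that passed the test were mainly rises of genes that were low in sham. The median effect over the 10106 genes was -0.19, with quartiles at -0.49 and 0.21, and 35.7% of genes had a higher value in 5/6Nx. Effects are read against this median. Per the authors' deposited table, 161 of 10068 tested genes rose (1.60%) and 10 fell (0.0993%), and 38 genes were not tested. Over all tested features of the same table, most of which carry no symbol, 58.2% were called higher and 0.132% lower. Among tested features with 1 symbol at any sham level these shares were 8.01% and 0.0900%. Summed FPKM over all features was 388184 in sham and 6.21e+06 in 5/6Nx, against 368355 and 400305 for the member genes. Loci without a symbol made up 4.61% of the summed FPKM in sham and 91.3% in 5/6Nx. The adjusted p-values of named genes were thus set beside a very large number of low p-values from unnamed loci. When the deposited p-values were adjusted over features with 1 symbol alone, 62 member genes rose (0.616%) and none fell, with 23 lower and 205 higher at an unadjusted p under 0.05 in the authors' test.

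The share of genes that rose was lower at higher sham levels. It was 4.40% of 1613 tested genes between 1 and 2 FPKM, 1.92% of 2610 between 2 and 5 FPKM, 1.67% of 1972 between 5 and 10 FPKM and 0.388% of 1548 between 10 and 20 FPKM. Of 1225 tested genes between 20 and 50 FPKM 1 rose, and at 50 FPKM or more none of the genes tested (507 up to 100 FPKM and 593 above) rose. Of the 161 genes that rose 75.2% had a sham value under 5 FPKM, against 41.4% of the genes that did not pass. The smallest effect that passed in either direction was 1.53 in size.

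**Figure D2:**
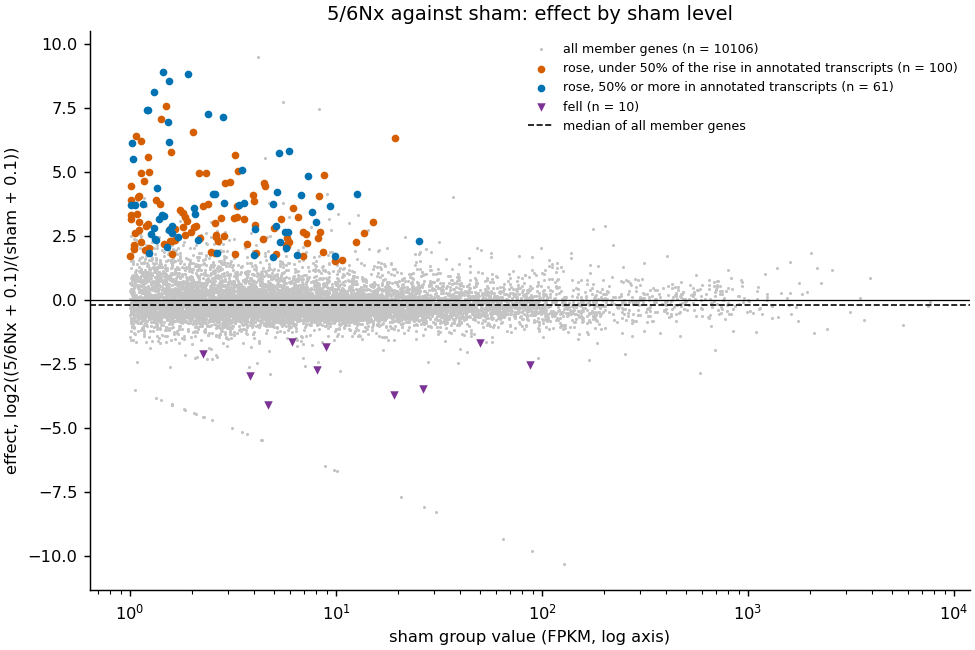
Effect of 5/6Nx against sham (log2 scale) by sham group value (FPKM, log axis) for the 10106 member genes. Grey points are all genes, orange and blue points are the 161 genes that rose, split by whether annotated transcripts carried under 50% (100 genes) or at least 50% (61 genes) of the FPKM rise, and purple triangles are the 10 that fell. The rises lie at low sham values, and the descending line of grey points at the lower left is made by features listed at 0 in 5/6Nx.

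Each gene value in these tables is the sum of the values of its transcripts, within 1% for all 10106 genes, so the rises can be divided between transcripts of the annotation (Ensembl identifiers) and transcripts assembled from the reads. In 100 of the 161 genes that rose, annotated transcripts carried under 50% of the FPKM rise, and in 87 of these they carried under 10%. In 39 of the 161 the annotated transcripts had an effect below 0. The other 61 rises were carried at 50% or more by annotated transcripts, 57 of them at 90% or more. The median effect of the genes that rose was 3.15 for the whole gene and 1.28 for its annotated transcripts. An assembled transcript can be a variant of the annotated one, and the tables do not give its exons.

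**Figure D3:**
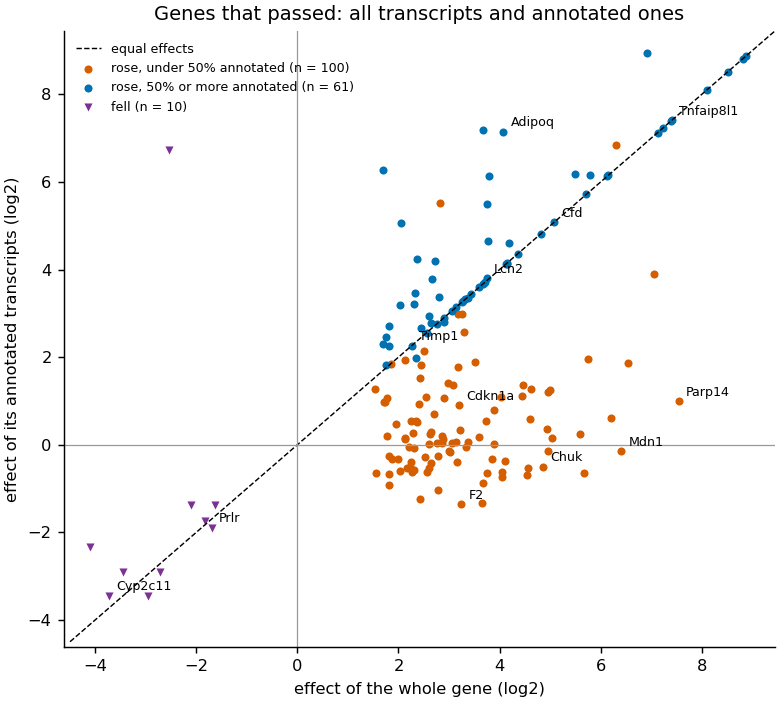
Effect of the whole gene (horizontal, log2) against the effect of its annotated transcripts alone (vertical, log2) for the 171 genes that passed. Points on the dashed line have equal effects. Lcn2, Cfd and Tnfaip8l1 lie on the line, while Parp14, Chuk, Mdn1 and F2 lie far below it with annotated effects of 0.99, -0.50, -0.15 and -1.36.

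Among the 132 rises that carry a gene name and not a placeholder, annotated transcripts carried 50% or more of the rise in 43. Injury and stress genes were among them. Lcn2 (chromosome 3, 11414186 to 11417683 as listed), which encodes the iron-binding injury protein NGAL, was at 4.96 FPKM in sham and 67.8 FPKM in 5/6Nx, and it rose with an effect of 3.74 (q = 0.0394, authors' deposited table). Timp1, an inhibitor of matrix metalloproteinases, was at 5.37 and 26.1 FPKM and rose by 2.26 (q = 0.0461, authors' deposited table). Hmox1, the inducible heme-degrading enzyme, was at 1.44 and 15.2 FPKM and rose by 3.32 (q = 0.0461, authors' deposited table). Cp, which encodes the copper-carrying ferroxidase ceruloplasmin, was at 6.43 and 21.8 FPKM and rose by 1.75 (q = 0.0249, authors' deposited table). Their annotated transcripts had effects of 3.80, 2.26, 3.32 and 2.46 in that order, and the shared direction follows from the 50% criterion by construction.

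A further 3 named genes rose through annotated transcripts. Ccl19, a chemokine that attracts T cells and dendritic cells, was at 2.04 FPKM in sham and 25.7 FPKM in 5/6Nx, an effect of 3.59 (q = 0.0441, authors' deposited table). Cd86, a costimulatory ligand on antigen-presenting cells, was at 1.59 and 10.2 FPKM, an effect of 2.61 (q = 0.00922, authors' deposited table). Mlkl, the executioner of necroptosis, was at 1.32 and 7.22 FPKM, an effect of 2.37 (q = 0.00493, authors' deposited table). None of the 4 injury and stress genes above, nor Ccl19, Cd86 or Mlkl, passed after adjustment over features with 1 symbol. The same holds for Eln, Adipoq, Jchain, Nr1i3, Mcm6, Fgf9, Pycard, Mb and Pgam2, described below. Their unadjusted p-values in the authors' test were above that of Mlkl.

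The named rises of greatest size were mixed in this respect. Tnfaip8l1, a relative of the immune regulator Tnfaip8, was at 1.21 FPKM in sham and 223 FPKM in 5/6Nx, an effect of 7.41 (q = 0.0214, authors' deposited table), all of it in 1 annotated transcript. Zfp955a, a zinc finger gene, was at 1.52 and 197 FPKM, with 98.6% of the rise in annotated transcripts. Parp14, an ADP-ribosyltransferase, was at 1.49 and 297 FPKM, an effect of 7.55 (q = 9.2e-05, authors' deposited table), yet its annotated transcripts went from 1.42 to 2.92 FPKM and carried 0.506% of the rise. The remainder lay in 1 assembled transcript at 0.00453 FPKM in sham and 293 FPKM in 5/6Nx, which as a transcript had p = 0.330 in the authors' deposited isoform table. Mdn1, a ribosome assembly ATPase, showed the same layout, with the gene at 1.07 and 99.3 FPKM and its annotated transcripts at 0.840 and 0.749 FPKM. Zcchc8, a subunit of a nuclear RNA surveillance complex, was at 3.22 and 168 FPKM, with annotated transcripts at 0.979 and 0.593 FPKM. Among the 15 named genes with the largest rises, the leading 5/6Nx transcript was annotated in Tnfaip8l1, Zfp955a and Cfd and assembled in the other 12.

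Over all 161 rises the leading transcript in 5/6Nx was annotated in 61 genes and assembled in 100. Of the 61 annotated leading transcripts 37 had q under 0.05 as single transcripts, and of the 100 assembled ones 29 did. The assembled leading transcript was listed at 0 in sham in 9 genes and under 0.1 FPKM in 40. Cdkn1a, the cell cycle inhibitor p21, belongs to the second kind. It was at 2.75 FPKM in sham and 26.1 FPKM in 5/6Nx and rose by 3.20 (q = 0.00485, authors' deposited table). Its annotated transcripts went from 2.69 to 5.13 FPKM, an effect of 0.91. Cdkn1a did not pass after adjustment over features with 1 symbol. Havcr1, the tubular injury marker Kim-1, stood outside the rule at 0.596 FPKM in sham and reached 21.4 FPKM in 5/6Nx, with 0.569% of that difference in annotated transcripts.

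Only 7 genes with gene names fell, and none of the 7 passed after adjustment over features with 1 symbol. Cyp2c11 (chromosome 1, 257517242 to 258004434 as listed), a male-predominant steroid hydroxylase of rat liver, was at 19.2 FPKM in sham and 1.36 FPKM in 5/6Nx and fell by 3.72 on the log2 scale (q = 0.0151, authors' deposited table). Prlr (chromosome 2, 60131637 to 60379420), the prolactin receptor, was at 50.2 and 15.4 FPKM and fell by 1.70 (q = 0.0152, authors' deposited table). Gcgr (chromosome 10, 109705562 to 109716128), the glucagon receptor, was at 8.94 and 2.46 FPKM and fell by 1.82 (q = 0.0469, authors' deposited table). Slc22a13 (chromosome 8, 127885102 to 127900463), an organic anion transporter of the tubule, was at 3.82 and 0.404 FPKM and fell by 2.96 (q = 0.0290, authors' deposited table). Prlr thus stayed above Gcgr in level, and Slc22a13 was left under 1 FPKM. The listed Cyp2c11 locus is wide, and genes of the Cyp2c family are similar in sequence, so reads may be divided among them.

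The remaining falls were Cacng5, an auxiliary subunit of glutamate receptor channels, Ttll8, a tubulin glycylase, and Prima1, the membrane anchor of acetylcholinesterase. Cacng5 was at 26.4 FPKM in sham and 2.30 FPKM in 5/6Nx, Ttll8 at 4.66 and 0.175 FPKM, and Prima1 at 8.10 and 1.14 FPKM. Annotated transcripts had an effect below 0 in 9 of the 10 genes that fell, at -3.45 for Cyp2c11, -1.90 for Prlr, -1.75 for Gcgr and -3.45 for Slc22a13. They carried 71.5% of the difference in Gcgr, 69.9% in Cyp2c11 and 51.4% in Prlr, but 9.12% in Cacng5. In the 1/3Nx table, which shares the sham animals, the effects were 0.15 for Cyp2c11, -0.39 for Prlr, -0.73 for Gcgr, -1.95 for Slc22a13, -1.35 for Cacng5, -1.36 for Ttll8 and -1.44 for Prima1. The last 4 of these passed there (q = 0.00183, authors' deposited table). The difference between surgeries was not tested.

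Among the named falls, only Cyp2c11 had a value on the other side of sham after 1/3Nx, without passing there (q = 0.812, authors' deposited table). Its promoter is shown with the TATAAA letters in capitals. It runs from 250 bases before to 50 bases after the RefSeq start on the plus strand of chromosome 1 in the GRCr8 build (chr1:246174966-246175265), a later build than that of the tables.
Cyp2c11: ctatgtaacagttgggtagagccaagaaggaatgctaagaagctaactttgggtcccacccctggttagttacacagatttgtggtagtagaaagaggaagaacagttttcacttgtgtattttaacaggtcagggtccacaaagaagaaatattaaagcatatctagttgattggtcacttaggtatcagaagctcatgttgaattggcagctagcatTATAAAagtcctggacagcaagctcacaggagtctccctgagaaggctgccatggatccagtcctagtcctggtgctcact
Read on both strands, the letters TATAAA occur once in it, 31 bases before the start, and in 2 of the 7 named falls, against 6.40% of the 7448 member genes with a promoter and 14.3% of all 27457 promoters of that table. The letters TTCNNNGAA, which read the same on both strands and are bound by STAT factors, occur in 0 of the 7, in 6.48% of the member genes' promoters and in 8.68% of all promoters.

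**Figure D4:**
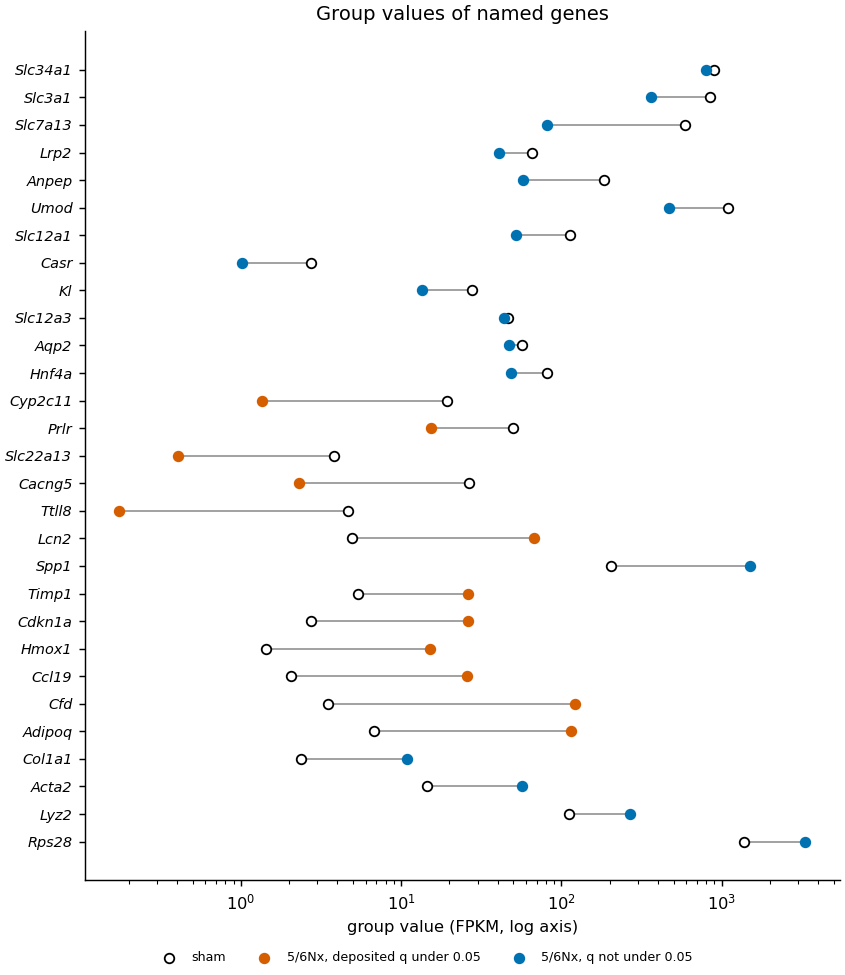
Group values in FPKM (log axis) of 29 named genes in sham (open circles) and 5/6Nx (filled circles, orange where the deposited q was under 0.05 and blue where it was not). The tables give 1 value per group, so no error bars can be drawn. Tubule genes lie to the left of sham in 5/6Nx, from Slc34a1 (900 and 799 FPKM) to Slc7a13 (585 and 81.6 FPKM), and Spp1 (203 and 1492 FPKM) and Lcn2 lie to the right.

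Early proximal tubule genes and brush border peptidases were mostly lower in value in 5/6Nx, and of the proximal lists only Slc22a13 passed. Of 29 early proximal genes 23 had lower values and none passed, with a median effect of -0.37. Slc34a1, the main phosphate transporter of the brush border, was at 900 FPKM in sham and 799 FPKM in 5/6Nx (effect -0.17), whereas Slc3a1, the heavy subunit of the cystine transporter, was at 849 and 363 FPKM (effect -1.22). Lrp2, the endocytic receptor megalin, was at 65.7 and 41.0 FPKM (effect -0.68). In the late segment 7 of 11 genes were lower, a share close to that of all member genes (6496 of 10106), and Slc7a13, an amino acid transporter of the straight tubule, was at 585 and 81.6 FPKM (effect -2.84, q = 0.191, authors' deposited table). The brush border peptidases stood lower still, with 11 of 12 below sham and a median of -0.89. Anpep, aminopeptidase N, was at 184 and 57.9 FPKM (effect -1.67), and Mme, neprilysin, was at 56.9 and 17.98 FPKM (effect -1.66). Ggt1 was the exception at 955 and 1002 FPKM, although its annotated transcripts had an effect of -1.18. In tissue of this kind, fewer cells of a type and less RNA per cell cannot be told apart.

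Segments beyond the proximal tubule had lower values as well, and none of their genes passed. Of 16 thick ascending limb genes 14 were lower, with a median of -0.87. Umod, which encodes uromodulin, was at 1098 FPKM in sham and 467 FPKM in 5/6Nx (effect -1.23), Slc12a1, the loop diuretic-sensitive cotransporter, was at 112 and 52.4 FPKM (effect -1.10), and Casr, the calcium-sensing receptor, was at 2.74 and 1.02 FPKM (effect -1.34). All 16 intercalated cell genes were lower, with a median of -0.63, and Car2, carbonic anhydrase 2, was at 168 and 95.6 FPKM. Of 13 distal convoluted and connecting tubule genes 10 were lower, with a median of -0.55. Kl, which encodes the FGF23 co-receptor klotho, was at 27.8 and 13.6 FPKM (effect -1.03), whereas Slc12a3, the thiazide-sensitive cotransporter, was at 46.6 and 44.0 FPKM (effect -0.08). The 16 principal cell genes had a median of -0.18, near that of all genes, with 10 lower, and Aqp2, the vasopressin-regulated water channel, was at 56.4 and 46.9 FPKM.

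Glomerular and vascular genes differed among themselves, and none passed. Of 17 podocyte genes 13 were lower, with a median of -0.51. Npnt, a ligand of the glomerular basement membrane, was at 7.11 FPKM in sham and 2.65 FPKM in 5/6Nx (effect -1.39). Col4a4, a chain of the mature glomerular basement membrane, was at 45.4 and 18.3 FPKM (effect -1.31, q = 0.0568, authors' deposited table). Endothelial genes had a median of -0.11, with 10 of 17 lower. Mural and smooth muscle genes had a median of 0.74, with 9 of 12 higher, and Acta2, smooth muscle actin, was at 14.5 and 56.9 FPKM (effect 1.97, q = 0.326, authors' deposited table).

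Transcription factors that define kidney epithelium had lower values, with 17 of 20 below sham, a median of -0.69 and none passing. Hnf4a, a driver of proximal tubule genes, was at 81.1 FPKM in sham and 48.6 FPKM in 5/6Nx (effect -0.74) and Emx1 was at 10.0 and 4.52 FPKM (effect -1.13). Ppargc1a, the coactivator of mitochondrial genes, was at 4.80 and 2.82 FPKM (effect -0.74). The constitutive androstane receptor Nr1i3 was the only gene of the nuclear receptor list that rose, from 2.04 to 15.04 FPKM (effect 2.83, q = 0.00774, authors' deposited table), and annotated transcripts carried under 50% of that rise.

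**Figure D5:**
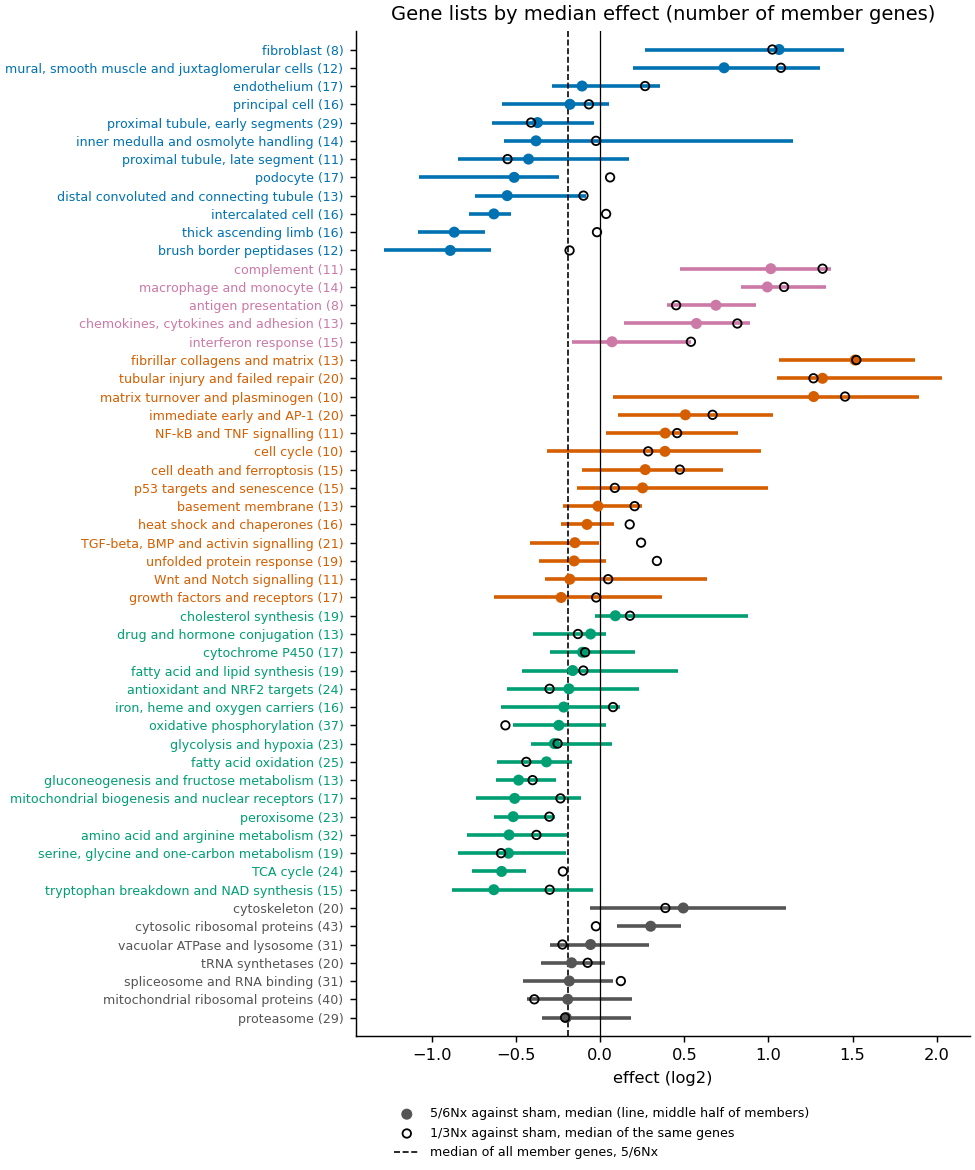
Median effect (log2) of gene lists with at least 8 member genes, the number of members in brackets. Filled points are 5/6Nx against sham with lines spanning the lower to the upper quartile of members, open points are the medians of the same genes in 1/3Nx against the same sham animals, and the dashed line is the median of all member genes in 5/6Nx. Brush border peptidases, thick ascending limb and intercalated cell genes lie left of the dashed line, and matrix and injury genes lie to the right.

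Metabolic genes were lower across several pathways of the oxidative tubule, and none of the genes in the fatty acid, citrate cycle, peroxisome and amino acid lists passed. Of 24 tricarboxylic acid cycle genes 23 were lower, with a median of -0.59, and Idh1, the cytosolic isocitrate dehydrogenase, was at 170 FPKM in sham and 93.7 FPKM in 5/6Nx. Of 23 peroxisome genes 20 were lower (median -0.52), and Hao2, a hydroxyacid oxidase, was at 2099 and 865 FPKM (effect -1.28, q = 0.115, authors' deposited table). Fatty acid oxidation genes had a median of -0.32, with 20 of 25 lower, and Acsm3, a medium-chain acyl-CoA synthetase, was at 101 and 36.9 FPKM. Genes of tryptophan breakdown and NAD synthesis had a median of -0.63, and Aadat, the kynurenine aminotransferase, was at 468 and 175 FPKM (effect -1.42). Serine, glycine and one-carbon genes had a median of -0.55, with 17 of 19 lower.

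Oxidative phosphorylation genes lay closer to the general median, at -0.25 with 24 of 37 lower. Atp5b, the catalytic subunit of ATP synthase, was at 1623 FPKM in sham and 1112 FPKM in 5/6Nx, while Cox6c was higher at 1443 and 1741 FPKM. Glycolytic genes had a median of -0.27, and 1 of 23 rose, against 1.60% of all tested member genes. The gene that rose was Pgam2, the muscle form of phosphoglycerate mutase, at 8.38 and 52.8 FPKM (effect 2.64, q = 0.0456, authors' deposited table). Its annotated transcripts had an effect of 0.30. Cholesterol synthesis genes stood at 0.09, with 11 of 19 higher and none passing.

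Genes of tubular injury and of matrix had higher values nearly throughout. Of 20 members of the injury list 19 were higher and 4 rose, namely Lcn2, Cp, Cdkn1a and Timp1, where 1.60% of all tested member genes rose, and the list median was 1.32. None of these 4 passed after adjustment over features with 1 symbol. Spp1, which encodes osteopontin, was at 203 FPKM in sham and 1492 FPKM in 5/6Nx (effect 2.88) and did not pass (q = 0.134, authors' deposited table). All 13 fibrillar collagen and matrix genes were higher, with a median of 1.51, and 1 rose. This was Eln, which encodes elastin, at 2.19 and 12.2 FPKM (effect 2.42, q = 0.00966, authors' deposited table). Eln did not pass after adjustment over features with 1 symbol. Col1a1, a chain of collagen I, was at 2.36 and 10.9 FPKM (effect 2.16, q = 0.243, authors' deposited table), and Col6a1 was at 2.61 and 12.8 FPKM (effect 2.24). Basement membrane genes as a whole stood at -0.01, with Col4a1 at 16.7 and 32.5 FPKM and Col4a3 at 4.21 and 1.95 FPKM.

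Fibroblast and leukocyte markers moved with the injury and matrix genes, and their part in the injury, matrix and tubule results was not tested. The 8 fibroblast genes had a median of 1.06 with 6 higher, their summed level was 285 FPKM in sham and 1075 FPKM in 5/6Nx, and none was called. The 14 macrophage and monocyte genes were all higher, with effects from 0.55 to 1.86, a median of 0.99 and a summed level of 229 and 538 FPKM, and none was called. Lyz2, lysozyme of myeloid cells, was at 111 and 269 FPKM, and Lgals3, galectin-3, was at 9.57 and 35.0 FPKM. Of 22 T and NK cell genes 16 were under 1 FPKM in sham, and the 6 members had a median of 1.14, with Cd3g of the T cell receptor complex at 1.04 and 5.89 FPKM (q = 0.0635, authors' deposited table). With annotated transcripts alone the median of these 6 genes was 0.08, and the effect of Cd3g was -0.53. Jchain, the joining chain of secreted antibody, rose from 1.01 to 10.8 FPKM (effect 3.30, q = 0.0118, authors' deposited table).

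Other innate immune groups showed less uniform shifts. Of 11 complement genes 9 were higher (median 1.01) and 1 rose, namely Cfd, adipsin, at 3.51 FPKM in sham and 122 FPKM in 5/6Nx (effect 5.08, q = 0.00204, authors' deposited table). Of 13 chemokine, cytokine and adhesion genes 11 were higher (median 0.57) and 1 rose, namely Ccl19, where 1.60% of all tested member genes rose. Ccl21 was at 12.8 and 128 FPKM without passing (q = 0.0782, authors' deposited table). Interferon response genes stood at 0.07, with 8 of 15 higher and none passing, and Mx2, an interferon-induced GTPase, was at 14.3 and 5.68 FPKM. Pycard, the inflammasome adaptor, was at 5.80 and 31.2 FPKM and rose by 2.40 (q = 0.0255, authors' deposited table), with an annotated effect of 0.94.

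Among growth factor genes 1 of 17 rose, among p53 targets 1 of 15 and among cell cycle genes 1 of 10, against 1.60% of all tested member genes. Of 20 immediate early genes 16 were higher (median 0.51) and none passed, with Atf3, a stress-induced factor, at 2.096 and 9.54 FPKM. Fgf9 was the 1 growth factor gene that rose, from 9.87 to 28.7 FPKM (effect 1.53, q = 0.0236, authors' deposited table), with an annotated effect of 1.28. Of 10 cell cycle genes above 1 FPKM in sham, Mcm6, a replication helicase subunit, rose from 1.02 to 24.2 FPKM (effect 4.45, q = 0.0147, authors' deposited table), with an annotated effect of 1.11. Pcna, the replication clamp, was at 18.3 and 14.3 FPKM. Unfolded protein response and chaperone genes had medians of -0.16 and -0.08, near that of all genes.

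Cytosolic ribosomal protein genes had higher values in 5/6Nx, whereas most other housekeeping complexes lay near the median of all genes. Of 43 such genes 35 had a higher value and 42 lay above the median of all genes, with a list median of 0.30 and none passing. Rps28 was at 1383 FPKM in sham and 3317 FPKM in 5/6Nx (effect 1.26), and Rpsa, the laminin receptor protein of the small subunit, was at 802 and 1814 FPKM (effect 1.18). Mitochondrial ribosomal proteins stood at -0.19, the proteasome at -0.20, spliceosome genes at -0.18 and tRNA synthetases at -0.17. Cytoskeletal genes stood at 0.49, and Tmsb4x, an actin monomer-binding peptide, was at 1597 and 4483 FPKM (effect 1.49). Ribosomal protein genes have many near-identical pseudogene copies, so their reads may be divided among loci.

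Genes of neighbouring and unrelated tissues were also present among the rises. Of 9 adipocyte genes 2 rose, Cfd and Adipoq, against 1.60% of all tested member genes. The list also holds Pck1, an abundant proximal tubule gene at 1135 and 895 FPKM in sham and 5/6Nx, and with it the summed level was 1200 and 1284 FPKM. Without Pck1, left out after the values were seen, the other 8 members summed to 65.3 and 389 FPKM, with 6 of the 8 higher and a median effect of 1.45. Adipoq, which encodes adiponectin, was at 6.75 and 115 FPKM (effect 4.08, q = 0.00502, authors' deposited table), whereas Cidec, a lipid droplet protein of the same cells, was at 15.8 and 15.04 FPKM. Of 3 muscle genes 1 rose, Mb, myoglobin, at 2.06 and 22.2 FPKM (effect 3.37, q = 0.0412, authors' deposited table). The remaining muscle members did not pass. Mylpf was lower at 1.06 FPKM in sham and 0.548 FPKM in 5/6Nx (effect -0.84), and Eno3 was at 1.96 and 2.49 FPKM (effect 0.33). Of 14 exocrine pancreas genes with a feature 13 were under 1 FPKM in sham and so outside the rule, and all 13 were at 1 FPKM or more in 5/6Nx, where 5 of them were called higher. Among tested features with 1 symbol at any sham level 8.01% were called higher. The trypsinogen gene Prss1, chosen after its values were seen, was at 0.226 and 179 FPKM, with an effect of 9.10 in 5/6Nx and 8.70 in 1/3Nx, and it passed in 5/6Nx alone (q = 0.000893 and 0.180, authors' deposited tables), with no test of the difference. The 3 erythrocyte genes were lower, with Hbb, beta globin, at 144 and 79.4 FPKM. Among them Slc4a1, at 11.5 and 5.23 FPKM, is also counted in the intercalated cell list. The part of such tissue in the rises of Cfd, Adipoq and Mb was not tested.

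The isoform table held fewer calls. Of 8406 tested member transcripts 31 rose (0.369%), all of them by 2.90 or more on the log2 scale, and 0 fell in the authors' deposited test, where 52 transcripts were higher and 5 lower at an unadjusted p under 0.05. Over all tested transcripts there, 49.5% were called higher and 0.0961% lower. The median effect of the 8450 transcripts was -0.34. Of the 31 rises 17 carry a gene name, among them Lcn2, Cfd, Cd86 and Tnfaip8l1, and 29 belong to a symbol that also rose as a gene. Single transcripts of Ighm, the IgM heavy chain, and of Ifitm1, an interferon-induced membrane protein, rose from 1.47 to 24.8 FPKM and from 3.93 to 72.3 FPKM. Both were chosen after their values were seen.

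The leading transcript of a gene was often not the same in the 2 groups. Of 3718 member genes with a gene name, several transcripts and at least 5 FPKM in both groups, 599 (16.1%) had another leading transcript in 5/6Nx, and the largest change in share was 8.65 percentage points in the median gene. In 304 of the 599 an annotated transcript led in sham and an assembled one in 5/6Nx, and in 87 the order was the reverse. Chuk, the IKK-alpha kinase of NF-kB signalling, showed the largest change. An assembled transcript of Chuk went from 0.0446% to 98.0% of the gene's FPKM, from 0.00392 to 253 FPKM. The transcript that led in sham, also an assembled one, went from 5.38 to 2.90 FPKM. The gene passed (q = 0.000272) and the transcript that led in 5/6Nx did not (p = 0.283) in the authors' deposited tables. F2, which encodes prothrombin, had a transcript listed at 0 in sham and at 56.2 FPKM in 5/6Nx, against 4.13 and 1.55 FPKM for its annotated transcript. Map2k1, the MAP kinase kinase MEK1, kept its annotated transcript at 10.2 and 10.96 FPKM while an assembled one reached 95.5 FPKM. In Adipoq the order was opposite, with an annotated transcript at 0.124 and 106 FPKM (q = 0.0556, authors' deposited table).

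The same 10106 genes gave more calls at smaller effects in the 1/3Nx table, which was scaled separately and shares the sham animals. There 357 of 10070 tested genes rose (3.55%) and 343 fell (3.41%), and the median effect was -0.04. An effect above 1 was reached by 711 genes in 5/6Nx, of which 161 passed, and by 237 genes in 1/3Nx, of which 203 passed. The smallest effect that passed was 1.53 in size in 5/6Nx and 0.62 in 1/3Nx. The threshold on q did not correspond to the same p-value in both tables. In the authors' deposited tests the highest p that passed was 0.02895 in 5/6Nx, with 103299 tested features, and 0.0032 in 1/3Nx, with 20696. The counts of calls and the smallest passing effects were therefore not obtained at an equal p-value limit. Col1a1 had an effect of 2.16 in 5/6Nx and 2.29 in 1/3Nx, Acta2 1.97 and 1.62, and Lyz2 1.27 and 1.498, and the 3 genes passed in 1/3Nx alone (q = 0.00183, authors' deposited table). A call in one table and not in the other therefore does not show that the surgeries differed, and that difference was not tested.

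List medians after the 2 operations are given side by side because the sham animals are shared. Matrix genes stood at 1.51 in 5/6Nx and 1.52 in 1/3Nx, injury genes at 1.32 and 1.27, and macrophage genes at 0.99 and 1.09. Thick ascending limb genes stood at -0.87 and -0.02, intercalated cell genes at -0.63 and 0.03, podocyte genes at -0.51 and 0.06, and kidney transcription factors at -0.69 and -0.02. Brush border peptidases stood at -0.89 and -0.18, and cytosolic ribosomal proteins at 0.30 and -0.03. Oxidative phosphorylation genes stood at -0.25 and -0.56, and early proximal tubule genes at -0.37 and -0.41. Against the medians of all genes (-0.19 and -0.04), the thick ascending limb, intercalated cell and peptidase lists were thus further below in 5/6Nx and oxidative phosphorylation genes further below in 1/3Nx, with no test of either.

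At the edge of the rule, Pak6, Cyp39a1 and Herc6 were left out with sham values just under 1 FPKM and had effects of -0.15, -0.41 and -0.14. Ccser1, Katnbl1 and Elmsan1 were kept with sham values just over 1 FPKM and had effects of 0.35, 0.02 and 1.71. Of the 10106 genes 27 were listed at 0 in 5/6Nx, 15 with names of small RNAs and 12 with placeholder names, and 1 of the 27 was tested.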

How the data were processed

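Total RNA from the left kidney was sequenced in 17 rats, of which the 6 of 5/6Nx and the 5 of sham carry the comparison. Tools listed in the submitters' processing notes, without their roles, are TopHat2 2.1.1, Cufflinks 2.2.1, StringTie, cutadapt and FastQC, and the build listed is rn5. AABR07 sequence names in the tables come from a later assembly, so the build behind the coordinates, printed 1-based, is not settled. The authors deposited 1 FPKM value per group and feature, with a p-value and a q-value for each comparison, in the layout Cuffdiff writes, per the file headers. The deposited read summary gives the count of reads, the percent mapped, the percent of bases at quality 30 or above and a mean quality score per library, per the file headers. The labels call the kit a stranded total RNA kit and the libraries small RNA, and this was not settled. Overlapping and antisense genes may share reads, since no source used here gives the counting settings.

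With Python 3.11.15, pandas 2.3.3, NumPy 2.4.6 and SciPy 1.17.1, rows with several symbols (628, shifted to the right) or a symbol turned into a date (26) were left out. Effects used a pseudocount of 0.1 FPKM. Of 94457 features without a symbol none was used as a member. No columns of other samples were present. The tables hold group values, so the authors' deposited q-values were used as the tests, at 0.05. Library measures were compared with exact permutation tests, with Benjamini-Hochberg adjustment. Functions were tested on simulated data. The labels describe separate rats, and group values carry no spread between them. Named genes are the 15 largest rises and all falls past the threshold, 3 to 5 genes for each list by sham level and size of effect, 18 genes named throughout and the 10 largest changes in transcript share, without placeholder names. The members and lists were chosen with earlier results of these data known. Of 10081 symbols, 7448 had a RefSeq promoter (GRCr8). Some genes of the lists are not reported here by name.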

Additional observations from a re-analysis of the deposited data

Results flagged for a closer look

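Among the 8 sets of library values screened (4 measures in 5/6Nx and in sham), 1 stood apart. Replicate 5 of 5/6Nx held 103.557 M reads, while the other 5 libraries of its group held 59.0 to 73.0 M. The gap to its nearest neighbour exceeded Dixon's limit for 6 samples, which chance alone passes in about 1 set in 20. The same library mapped at 77.2%, and its part in the group values was not tested.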

How the results depend on the processing

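No paired analysis was possible because the tables hold 1 value per group and the replicate numbers follow accession order. The number of genes that rose was 161, against 62 with p-values adjusted over features with 1 symbol, 40 with a sham minimum of 5 FPKM, 827 with a mean over both groups of at least 1 FPKM and 1158 with no minimum. For genes that fell it was 10, and 0 after adjustment over features with 1 symbol, where 23 had an unadjusted p under 0.05 in the authors' test. For transcripts that rose it was 31, against 9, 6, 530 and 785 in the same order, and 2 transcripts fell with no minimum. A minimum on sham alone leaves out genes that were low in sham, by construction. The median effect of -0.19 was -0.077 with the minimum on the mean of both groups, and between -0.27 and -0.16 under the other settings, of which annotated transcripts alone and leaving out placeholder names were chosen after the data were seen. Of 65 lists with at least 5 members 22 had a median above 0, and 38 after the median of all genes was subtracted. With annotated transcripts alone the effects of Mdn1, Zcchc8 and Cemip turned to -0.15, -0.64 and -0.14. The other 19 of the 22 named rises and falls kept their direction. Of these 22, 13 still passed after adjustment over features with 1 symbol and 9 did not, among them all 7 falls, Tnfaip8l1 and Cemip. With at least 10 FPKM in both groups, a minimum chosen after the data were seen, 345 of 2272 genes had another leading transcript. Leaving out 1 library at a time, the difference of 5/6Nx minus sham ranged from -6.62 to -1.04 percentage points in mapping, from -5.84 to 3.07 M reads, from -2.05 to -0.30 points in bases of quality 30 or more and from -0.39 to -0.06 in mean quality. The cause of these changes was not tested. Gene values could not be recomputed without single libraries.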

Other observations

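Zinc finger genes with Zfp symbols were looked at after their number among the rises was seen. Of 133 such genes above 1 FPKM in sham 8 rose (6.02%), against 1.60% of all tested members, while their median effect was -0.24 and that of their annotated transcripts -0.29. In 3 of the 8, among them Zfp955a and Zfp791, annotated transcripts carried 50% or more of the rise. Zfp genes form families of similar sequence, and the authors' handling of reads shared by copies is not given.

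The RNA component of RNase MRP, named after its values were seen, was listed at 2 loci, Rmrp at 12.7 FPKM in sham and 225 FPKM in 5/6Nx and RNase_MRP at 2.57 and 46.6 FPKM. Their effects were 4.14 and 4.13 in 5/6Nx and -2.10 and -1.84 in 1/3Nx, where neither passed (q = 0.452 and 0.683, authors' deposited table). Both listings name the same kind of RNA, whose reads cannot be told apart where copies are identical, and the difference between the operations was not tested.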
